A study of Mus musculus with 6 samples.

Results

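The B cell marker genes *Cd79a*, *Cd79b*, *Ms4a1*, *Cr2*, *Blk*, *Pax5* and *Jchain* were examined in RNA-seq libraries of whole gonadal fat (gWAT, a visceral white adipose depot attached to the testis and epididymis). These 7 genes were chosen by name, through their NCBI gene identifiers, from the 19790 genes of the deposited count table. Each library came from 1 of 6 male wild-type C57BL/6 mice. Over 8 weeks, 3 of them ate normal chow (NCD) and the other 3 a high-fat diet (HFD). No transgene, deletion or drug was involved in either group. The sample labels place the start of the diets at 6 weeks of age, whereas the methods give 8 weeks. The comparison asks whether the RNA of B cells and antibody-secreting cells in the fat pad differed between the diets.

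B cells are lymphocytes that recognize antigen through membrane immunoglobulin. CD79A and CD79B form the signalling pair of this receptor, and CR2 (CD21) lowers the amount of antigen needed to trigger it. BLK is a SRC-family kinase of the receptor pathway, MS4A1 is the surface protein CD20, and PAX5 is the transcription factor that maintains B cell identity. JCHAIN joins polymeric IgM and IgA and is most abundant in plasma cells, which have switched *Pax5* and *Ms4a1* off. In visceral fat, B cells sit among the stromal cells and in small lymphoid clusters whose stroma makes the chemokine CXCL13.

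Library totals lay between 49575113 and 66360046 counts, with medians of 58524894 on NCD and 49873679 on HFD. The NCD libraries also held RNA of the seminal vesicle, an accessory gland that adjoins this fat pad. Its 11 secretory genes took 58.6%, 11.2% and 2.30% of the 3 NCD libraries and no more than 8 counts of any HFD library. Values are therefore given as CPM (counts relative to the library total) after TMM scaling in edgeR, whose factor was 0.496 for NCD replicate 1 and lay from 1.02 to 1.27 elsewhere. Triplets of values follow replicates 1, 2 and 3. This scaling did not level the fat RNA of the NCD libraries. After it, 8 adipocyte genes summed to 3700, 14540 and 19850 on NCD and to 15270, 15240 and 11680 on HFD. The part of this difference in the values of the members was not tested. The diet comparison of each member, and of some list genes, is also given without NCD replicate 1. A lower value in bulk tissue can mean fewer cells of a type or less RNA per cell, and these cannot be told apart here.

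The members lie on 7 different chromosomes of GRCm38 (mm10), the build named in the submitters' processing notes. *Cd79a* (NCBI gene 12518) spans chromosome 7 from 24897497 to 24901858, *Cd79b* (15985) chromosome 11 from 106311341 to 106314562, *Ms4a1* (12482) chromosome 19 from 11249679 to 11266149, and *Cr2* (12902) chromosome 1 from 195136811 to 195176880. *Blk* (12143) spans chromosome 14 from 63372837 to 63417187, *Pax5* (18507) chromosome 4 from 44524748 to 44710694, and *Jchain* (16069) chromosome 5 from 88519809 to 88527897.

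RefSeq promoter windows were found for 4 of the 7 members, *Cd79a*, *Cr2*, *Pax5* and *Jchain*. The 250 bases before the start are shown for a receptor gene and for the plasma cell gene, because these genes stand for the arms of the lineage that are compared below. Capitals mark the ETS core GGAA on either strand.

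Cd79a, GRCm38.p6 chr7:24897247-24897496, plus strand: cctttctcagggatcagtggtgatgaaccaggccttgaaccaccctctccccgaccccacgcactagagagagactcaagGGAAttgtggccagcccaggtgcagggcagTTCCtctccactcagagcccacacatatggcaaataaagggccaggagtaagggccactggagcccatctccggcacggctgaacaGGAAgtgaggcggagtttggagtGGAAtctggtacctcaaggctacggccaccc

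Jchain, GRCm38.p6 chr5:88527898-88528147, minus strand: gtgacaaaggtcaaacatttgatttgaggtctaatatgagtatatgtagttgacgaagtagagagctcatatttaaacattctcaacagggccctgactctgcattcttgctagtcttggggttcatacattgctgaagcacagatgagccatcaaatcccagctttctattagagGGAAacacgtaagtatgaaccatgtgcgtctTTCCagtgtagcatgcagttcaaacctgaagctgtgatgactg

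The ETS core occurred 4 times before *Cd79a*, 4 times before *Cr2*, 3 times before *Pax5* and 2 times before *Jchain*. It is common, being held by 93.4% of the 32851 promoter windows of the same length. The octamer ATGCAAAT, the EBF core CCCNNGGG and the E-box CAGCTG, searched on both strands, were in none of these 4 windows. They were held by 1.60%, 11.8% and 13% of all windows. The E-box reads the same on both strands.

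*Jchain* was the most abundant member in every mouse. Per kilobase of exon it averaged 15.1 ± 11.3 TMM-scaled CPM on NCD and 5.80 ± 2.91 on HFD (SD, n = 3 mice). The receptor genes came next, with 1.68 ± 0.927 and 2.28 ± 0.925 for *Cd79b* and 1.86 ± 1.15 and 1.74 ± 1.49 for *Cd79a*. *Cd79b* exceeded *Cd79a* in 2 of 6 mice, so the order of this pair was not separated by the spread. *Ms4a1* had a level per kilobase of 0.813 ± 0.588 on NCD and 0.582 ± 0.577 on HFD, and *Blk* 0.432 ± 0.144 and 0.583 ± 0.218. *Ms4a1* lay above *Blk* in 3 of 6 mice. *Cr2*, at 0.176 ± 0.114 and 0.101 ± 0.130, lay above *Pax5* in 5 of 6 mice, and *Pax5* was lowest on average at 0.0356 ± 0.0376 and 0.0336 ± 0.0281.

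These are rare transcripts in a fat pad. The 7 genes together received between 344 and 2880 counts in a library. *Pax5* rested on 4, 6 and 34 counts in the NCD mice and on 10, 9 and 33 in the HFD mice. Its lowest count has an exact Poisson 95% interval of 1.09 to 10.2, for counting error only. Counting error therefore bears on *Pax5* and on *Cr2* in HFD replicate 1 (9 counts), while the spread between mice limits the others.

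None of the members passed the test between the diets. edgeR's quasi-likelihood test called 0 of 7 at a Benjamini-Hochberg adjusted p under 0.05 and 0 of 7 at an unadjusted p under 0.05, and DESeq2 also called 0 of 7 at either. Over all genes, edgeR called 7.47% of the 15241 tested. The diets overlapped in all 7 members, whereas in 39.2% of the tested genes they did not overlap. All 7 passed the filter on low counts.

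*Cd79a*, the receptor's signalling alpha chain, was at 1.25, 2.36 and 4.54 TMM-scaled CPM on NCD and at 1.21, 1.34 and 5.03 on HFD. Replicate 3 was the highest mouse of each diet. The NCD values rose stepwise from replicate 1 to replicate 3, while HFD replicates 1 and 2 lay near the lowest NCD mouse. The mean was 2.72 ± 1.68 on NCD and 2.53 ± 2.17 on HFD (SD, n = 3 mice). The log2 fold change of HFD against NCD was -0.11 (standard error 0.735, 95% interval -1.89 to 1.68, adjusted p = 0.936 from edgeR).

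*Cd79b*, the beta chain, was at 1.16, 2.24 and 3.8 TMM-scaled CPM in the NCD mice and at 3.14, 2.01 and 4.65 in the HFD mice. HFD replicate 1, which was lowest of the HFD mice in *Cd79a*, was not low in *Cd79b*. The log2 fold change was 0.44 (standard error 0.530, 95% interval -0.845 to 1.73, adjusted p = 0.602 from edgeR). The ratio of *Cd79b* to *Cd79a* counts within a library was 0.927, 0.950 and 0.836 on NCD and 2.59, 1.5 and 0.924 on HFD. The receptor chains were thus close to equal in counts in 4 of the 6 mice and not in HFD replicates 1 and 2. This ratio was chosen after its values were seen and was not tested.

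*Ms4a1*, the CD20 gene of mature B cells, was at 0.943, 2.07 and 4.48 TMM-scaled CPM on NCD and at 0.780, 0.755 and 3.84 on HFD. HFD replicates 1 and 2 lay below every NCD mouse and HFD replicate 3 above NCD replicates 1 and 2. HFD differed from NCD by -0.49 on the log2 scale (standard error 0.858, 95% interval -2.57 to 1.60, adjusted p = 0.730 from edgeR).

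*Cr2*, the complement receptor of mature B cells that follicular dendritic cells also carry, had the widest spread on HFD. It was at 0.883, 0.736 and 2.25 TMM-scaled CPM on NCD and at 0.156, 0.228 and 1.85 on HFD. HFD replicate 3 was 11.9 times as high as HFD replicate 1, while the NCD mice spanned a ratio of 3.06. The log2 fold change was -0.80 (standard error 1.03, 95% interval -3.31 to 1.71, adjusted p = 0.632 from edgeR).

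*Blk*, the receptor-pathway kinase, varied least. It was at 1.00, 0.669 and 1.34 TMM-scaled CPM on NCD and at 0.849, 1.35 and 1.86 on HFD, so that the highest and lowest mouse of a diet differed 2.0-fold on NCD and 2.19-fold on HFD. Its log2 fold change was 0.43 (standard error 0.449, 95% interval -0.658 to 1.53, adjusted p = 0.544 from edgeR). *Pax5* was at 0.122, 0.10 and 0.633 on NCD and at 0.173, 0.108 and 0.526 on HFD. Replicate 3 again stood above the other mice of its diet, and the log2 fold change was -0.11 (standard error 0.955, 95% interval -2.43 to 2.21, adjusted p = 0.950 from edgeR).

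*Jchain* had the largest difference of the 7. It was at 5.11, 21.5 and 36.5 TMM-scaled CPM on NCD and at 4.18, 7.79 and 12.3 on HFD. NCD replicates 2 and 3 lay above every HFD mouse, and NCD replicate 1, the library rich in seminal vesicle RNA, lay among the HFD mice. The mean was 21.1 ± 15.7 on NCD and 8.08 ± 4.05 on HFD (SD, n = 3 mice). The log2 fold change of -1.38 (standard error 0.735, 95% interval -3.17 to 0.404) did not pass (adjusted p = 0.260 from edgeR).

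**Figure D1:**
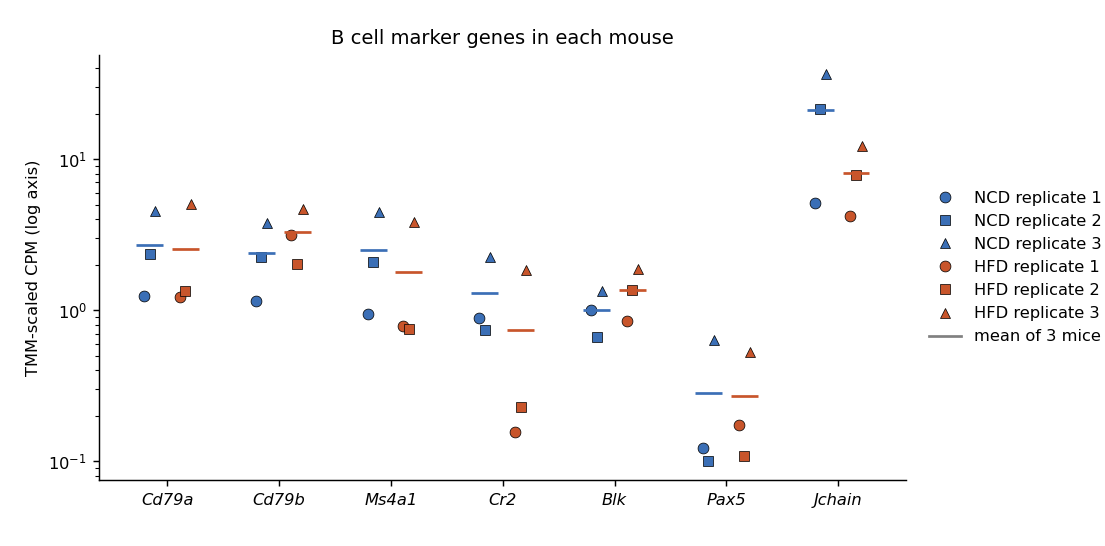
TMM-scaled CPM (log axis) of the 7 genes in each mouse, NCD in blue and HFD in orange, with symbols for replicates 1, 2 and 3 and a line at the mean of 3 mice. Replicate 3 is the highest mouse of its diet in every gene, and the diets overlap in every gene, from 0.10 for *Pax5* to 36.5 for *Jchain*.

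Without NCD replicate 1, *Jchain* was the only member of the 7 to pass. Its log2 fold change was then -1.83 (standard error 0.472, 95% interval -3.00 to -0.658, adjusted p = 0.0459 from edgeR), lower in 3 of 3 HFD mice than in either remaining NCD mouse. In that fit 20.9% of the 15510 genes tested passed, and those lower on HFD made up 10.1% of the genes tested, so 1 of 7 members lies near this background. The other 6 members had adjusted p-values from 0.499 (*Ms4a1*) to 0.859 (*Cd79b*) there. *Cr2* was at -0.99, *Ms4a1* at -0.85, *Pax5* and *Cd79a* at -0.43, *Cd79b* at 0.13 and *Blk* at 0.45 on the log2 scale. The seminal vesicle genes were lowest of the NCD libraries in replicate 3, the mouse with the highest *Jchain*, and their part in the result was not tested.

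The direction of *Cd79a*, *Ms4a1* and *Pax5* changed with the mouse left out. Without HFD replicate 3 no member changed direction. The log2 fold change then became -2.72 for *Cr2* (adjusted p = 0.176), -1.70 for *Ms4a1* (adjusted p = 0.309) and -1.08 for *Cd79a* (adjusted p = 0.408), all from edgeR. Without NCD replicate 3 it became 1.29 for *Pax5* (adjusted p = 0.423), 0.50 for *Cd79a* (adjusted p = 0.716) and 0.25 for *Ms4a1* (adjusted p = 0.879) from the same test. *Cd79a* and *Pax5* also turned positive without HFD replicate 1 (0.23 and 0.13) or HFD replicate 2 (0.21 and 0.29), with adjusted p-values from edgeR of 0.874 or above. *Jchain* and *Cr2* stayed lower and *Blk* and *Cd79b* higher on HFD whichever mouse was left out.

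**Figure D2:**
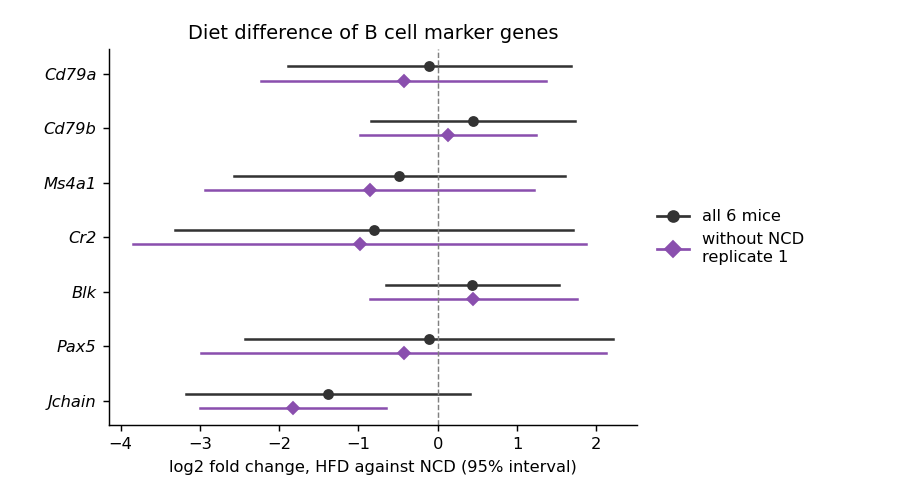
Log2 fold change of HFD against NCD for each member with its 95% interval, from all 6 mice (circles) and without NCD replicate 1 (diamonds). Every interval holds 0 except that of *Jchain* without NCD replicate 1, which runs from -3.00 to -0.658.

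The members shared their highest mice. In all 7 genes the highest NCD value was that of replicate 3 and the highest HFD value that of replicate 3, a combination held by 11.3% of the tested genes. NCD replicate 3 had the least seminal vesicle RNA (2.30%) and the largest adipocyte sum (19850) of the NCD libraries. HFD replicate 3 had the lowest adipocyte sum of its diet (11680). The part of these differences in the shared pattern was not tested. Over the 6 mice, log2(TMM-scaled CPM + 0.1) of *Cd79a* had a Pearson likeness of 0.98 to *Ms4a1*, 0.86 to *Pax5*, 0.85 to *Cr2* and 0.75 to *Cd79b*. *Jchain* had 0.79 to *Cd79a* and 0.84 to *Ms4a1*. *Blk* had 0.55 to *Cd79a* and 0.14 to *Jchain*, the lowest of the pairs. These are descriptions of 6 libraries that share their scaling. Replicate numbers are not read as a pairing, since the labels tie them to no litter or day. Over all genes the deviations of same-numbered mice had correlations of -0.0565, -0.0457 and 0.00965, and those of other pairs ran from -0.054 to 0.0764. With 3 mice on each diet these values cannot show whether a pairing exists.

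Among the other tested genes, those most like the mean standardized pattern of the members over the 6 mice were *Brf2*, *Polr2f*, *Hnrnpa2b1*, *Alg13*, *Cxcr5*, *Fam98b*, *Nmrk1*, *Atp23*, *Kat7* and *Sub1*, with Pearson likeness from 0.961 to 0.976. *Cxcr5*, the receptor by which B cells follow CXCL13, was the only one of these 10 on a list of immune genes. It was at 0.365, 0.736 and 1.56 TMM-scaled CPM on NCD and 0.555, 0.575 and 2.07 on HFD. Likeness of standardized values leaves out the size of the variation. *Brf2* ran only from 5.65 to 6.85 TMM-scaled CPM, *Hnrnpa2b1* from 327 to 446 and *Kat7* from 31.1 to 69.2. *Cd79a* ran from 1.21 to 5.03. *Fcer2a* (CD23) ranked 52 with 0.896 and *Fcmr* (the IgM Fc receptor) 73 with 0.875.

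*Cxcl13* showed the same mice high. It was at 1.86, 5.64 and 23.4 TMM-scaled CPM on NCD and at 0.815, 9.48 and 28.5 on HFD, so that the mice of a diet spanned ratios of 12.6 and 35.0. On the log2 scale the diets differed by 0.33 (standard error 1.3, adjusted p = 0.884 from edgeR). The wider list of lymphoid homing genes had 9 members, of which 7 were tested. In edgeR 0 passed with or without NCD replicate 1, while DESeq2 with all 6 mice called 1. Its untested members *Madcam1* and *Glycam1*, marking mucosal and lymph node vessels, had at most 16 counts and 2 counts in any library. The list of follicular dendritic cell genes summed to 3.68, 7.26 and 27.9 TMM-scaled CPM on NCD and 1.58, 10.4 and 32.1 on HFD, most of it *Cxcl13*, and whether such cells contributed to *Cr2* was not tested.

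No other gene of the receptor complex passed the test. Of the receptor complex and co-receptor list, 5 of 8 genes were measured and 0 passed in either fit. The immunoglobulin genes *Ighm*, *Ighd*, *Igkc*, *Ighg1*, *Ighg2c* and *Igha* were not analysed here. The list's median log2 fold change was -0.10, beside -0.08 over all tested genes.

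In the list of receptor signalling kinases, adaptors and inhibitors, 9 of 14 genes rose on HFD and none fell. Over all genes, 850 of the 15241 tested rose in this fit. The median log2 fold change was 1.90. These calls needed all 6 mice or the 5 without NCD replicate 1: leaving out any other single mouse left 0 of 14, as it left 0 calls among the macrophage, surface marker and transcription factor lists and *Ptprc* described next. Those fits called only 2 to 7 genes of the whole table. The log2 fold change was positive in 14 of 14 signalling genes whichever mouse was left out, except in 13 of 14 without HFD replicate 1. The kinase *Syk* rose from 14.5, 35.1 and 31.9 to 230.4, 134.2 and 179.2 TMM-scaled CPM (log2 fold change 2.74, adjusted p = 0.0235 from edgeR), and the inhibitory receptor *Cd72* rose by 2.88 on the log2 scale (adjusted p = 0.0192 from edgeR). *Lyn*, *Btk*, *Plcg2*, *Pik3ap1*, *Fcgr2b* and *Ptpn6* were also among those that rose. Apart from their place in B cells, *Syk*, *Lyn*, *Btk*, *Plcg2*, *Fcgr2b* and *Ptpn6* are known to act in macrophages, downstream of or as Fc receptors. *Blk*, *Bank1*, *Cd22*, *Blnk* and *Prkcb* did not pass, of which *Prkcb* passed without NCD replicate 1.

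The macrophage list moved with these genes. Its 8 genes summed to 366, 881 and 815 TMM-scaled CPM on NCD and to 3440, 2310 and 2945 on HFD, 4 of 8 rose (*Adgre1*, *Cd68*, *Itgam* and *Fcgr1*), and all 8 rose without NCD replicate 1. In that fit 1665 of all 15510 genes tested rose. The pan-leukocyte gene *Ptprc* (CD45) rose from 50.03, 80.8 and 61.2 to 141.8, 208.6 and 144.1 (log2 fold change 1.36, adjusted p = 0.0360 from edgeR). The part of macrophages in the rise of the signalling genes was not tested.

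Surface markers of B cells were mixed. Of 14 genes, 13 were tested and 4 rose (*Cd37*, *Cd72*, *Cd40* and *Ly86*), all of which macrophages or dendritic cells also express. The other 9 did not pass, 8 of the 13 having a positive log2 fold change. In this fit 850 of all 15241 genes tested rose, and the cells behind the 4 calls were not tested. *Fcrl1*, an Fc receptor-like protein of B cells, was at 0.183, 0.853 and 1.08 TMM-scaled CPM on NCD and 2.18, 3.60 and 7.10 on HFD, where the diets did not overlap (log2 fold change 2.59, adjusted p = 0.0855 from edgeR), and DESeq2 called it. DESeq2 called 3904 of all 15241 genes tested, among them genes of other lists that edgeR did not call. *Fcrla* and *H2-Ob* had log2 fold changes of 0.26 and 0.52 (adjusted p = 0.753 and 0.472 from edgeR). *Fcer2a* was at 0.943, 0.886 and 2.23 TMM-scaled CPM on NCD and 0.607, 0.515 and 1.48 on HFD (adjusted p = 0.504 from edgeR), and *Fcmr* had a log2 fold change of -0.72 (adjusted p = 0.470 from edgeR). *Vpreb3*, of early B cells, was not tested, with at most 11 counts in a library.

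Of 10 transcription factors of the B lineage, *Pou2f2* (OCT2) rose by 1.88 and *Irf8*, also a myeloid factor, by 1.3 on the log2 scale (adjusted p = 0.0240 and 0.0257 from edgeR). Beside them, 850 of all 15241 genes tested rose in this fit. *Pou2af1* (OBF1), *Spib* and *Bcl11a* did not pass, like *Pax5*. *Pou2af1* was at 1.28, 2.14 and 3.22 TMM-scaled CPM on NCD and at 0.589, 1.26 and 3.01 on HFD.

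None of the 5 genes of the BAFF and APRIL system passed edgeR's test with all 6 mice, while DESeq2 called *Tnfsf13* and *Tnfrsf13b* higher. The B cell receptor for BAFF, *Tnfrsf13c*, was at 0.700, 0.769 and 1.32 TMM-scaled CPM on NCD and 0.295, 0.372 and 1.07 on HFD (adjusted p = 0.481 from edgeR), and the survival factor itself, *Tnfsf13b*, had a log2 fold change of 0.54 (adjusted p = 0.334 from edgeR). *Tnfsf13* (APRIL) was at 2.62, 5.94 and 6.40 on NCD and 17.5, 13.9 and 14.5 on HFD, with a log2 fold change of 1.61 that passed without NCD replicate 1 (1.32, adjusted p = 0.00919 from edgeR) and not with it (adjusted p = 0.0528).

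Among the plasma cell genes, 8 of 12 were measured and 0 passed edgeR's test with TMM scaling and all 6 mice. On the same mice DESeq2 called *Sdc1* higher and *Derl3* lower, and edgeR on total counts without further scaling called *Sdc1*. *Mzb1*, a chaperone of immunoglobulin assembly, was at 0.365, 0.803 and 1.64 TMM-scaled CPM on NCD and 0.156, 0.803 and 1.23 on HFD (log2 fold change -0.37, 95% interval -2.42 to 1.69, adjusted p = 0.795 from edgeR). *Tnfrsf17* (BCMA) had between 4 and 31 counts in a library and a log2 fold change of -0.19 (adjusted p = 0.896 from edgeR). Without NCD replicate 1, *Jchain* was lower and *Sdc1*, the plasma cell marker CD138 that many other cells make, was higher on HFD (log2 fold change 2.03, adjusted p = 0.0343 from edgeR). *Derl3* was at 100, 9.30 and 2.55 on NCD and at most 1.80 on HFD, in the same order over the NCD mice as the seminal vesicle genes.

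T cell genes gave no call either. Of 11 tested, 0 passed in either fit, with a median log2 fold change of 0.42, and they summed to 23.5, 26.4 and 19.2 TMM-scaled CPM on NCD and 21.7, 27.7 and 32.4 on HFD. Replicate 3 was the highest mouse of both diets in 1 of these 11 genes, near the 11.3% of all tested genes. Of 8 adipocyte genes 0 passed, with a median of -0.23, and without NCD replicate 1 *Plin1*, *Lipe* and *Slc2a4* fell.

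**Figure D3:**
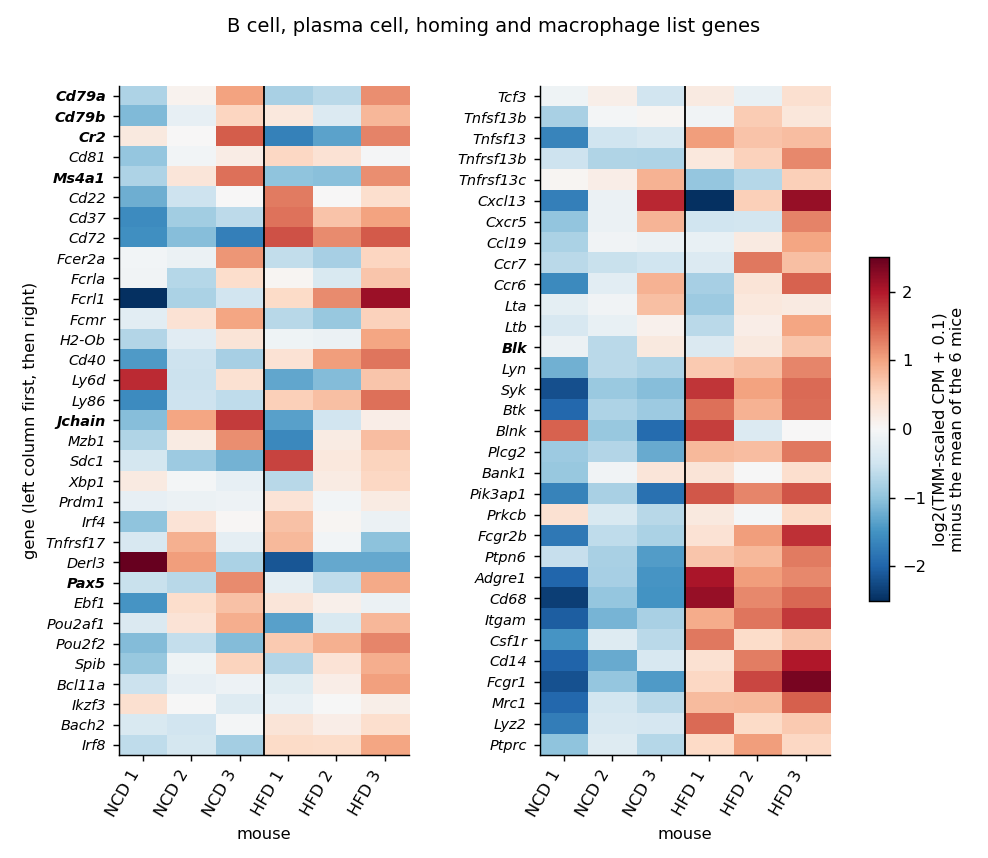
Log2(TMM-scaled CPM + 0.1) minus the mean of the 6 mice for tested genes of the B cell, plasma cell, homing, BAFF, receptor signalling and macrophage lists, with the 7 members in bold and a line between the diets. *Cd79a*, *Ms4a1*, *Cr2* and *Cxcl13* are highest in the replicate 3 mice, while *Syk*, *Cd72* and *Adgre1* are high in all 3 HFD mice.

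Ratios of genes within a library do not depend on how libraries are scaled. *Cd79a* counts were 0.0249, 0.0292 and 0.0742 of *Ptprc* counts on NCD and 0.00856, 0.00644 and 0.0349 on HFD. HFD replicates 1 and 2 lay below every NCD mouse, and HFD replicate 3 lay between NCD replicates 2 and 3. On the log2 scale, with 0.5 added to each count, the difference of HFD against NCD was -1.61 (exact two-sided permutation test, p = 0.3). With 3 mice against 3 this test cannot go below 0.1.

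Relative to *Cd79a*, *Ms4a1* was at 0.756, 0.879 and 0.988 on NCD and at 0.643, 0.563 and 0.763 on HFD, with the diets overlapping by the lowest NCD and highest HFD mouse alone (log2 difference -0.42, exact two-sided permutation test, p = 0.2). *Jchain* had 4.10, 9.13 and 8.05 counts for each *Cd79a* count on NCD and 3.44, 5.80 and 2.44 on HFD (log2 difference -0.87, exact two-sided permutation test, p = 0.2). *Cd79a* against the T cell gene *Cd3e* ranged from 0.494 to 3.25 on NCD and from 0.596 to 2.39 on HFD (log2 difference 0.18, exact two-sided permutation test, p = 0.9). Adjusted over the 4 ratios by Benjamini-Hochberg, these exact p-values became 0.4, 0.4, 0.4 and 0.9 in the order given.

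**Figure D4:**
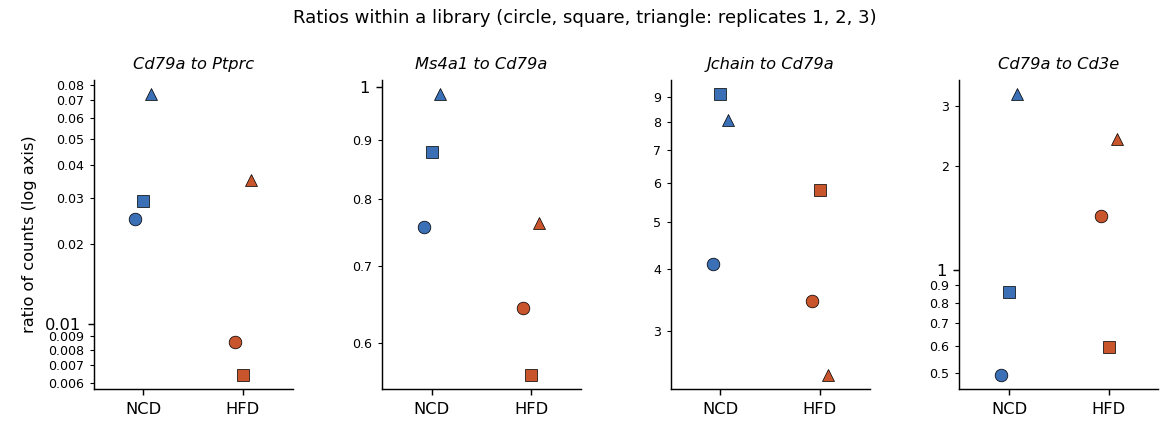
Ratios of counts within each library (log axes) for *Cd79a* to *Ptprc*, *Ms4a1* to *Cd79a*, *Jchain* to *Cd79a* and *Cd79a* to *Cd3e*, with 1 point per mouse. The diets overlap in all 4 panels, and *Cd79a* to *Ptprc* is lowest in HFD replicates 1 and 2, at 0.00856 and 0.00644.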

How the data were processed

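The deposited values are raw counts for each gene (NCBI gene identifiers) and mouse, not normalized by the authors, and 0 columns lacked a sample. The HFD column used as replicate 3 carries another number in its name. The submitters' processing notes name bcl2fastq 2.20.0, Trimmomatic, HISAT2 2.1.0, StringTie 1.3.4d and DESeq2 and the builds mm10 and GRCm38, without their roles. The methods and the labels differ on whether the TruSeq mRNA kit was the stranded one, and the counting rule, its strand setting and the annotation were not stated there. Of 19790 identifiers, 19742 were paired with a symbol through the RefSeq table of GRCm38.p6. Exon lengths were the union of GENCODE vM21 basic exons.

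In R 4.3.3, edgeR 4.0.16 was run with filterByExpr at a minimum count of 10 (total 15), then TMM, glmQLFit and glmQLFTest. P-values were adjusted by Benjamini-Hochberg across the 15241 genes that passed, and called under 0.05. Dividing a log2 fold change by the root of its F gave the standard error, and intervals use the test's degrees of freedom. The common biological coefficient of variation was 0.424, and 0.288 without NCD replicate 1. No library was a duplicate of another: within a diet, chi-square over its degrees of freedom was at least 116.2. The edgeR fit was also run on counts simulated from the means and dispersions of the real fit. The alternative fits were not checked in this way. Depth was 49575113 to 66360046 counts a library, and the Poisson interval covers counting error only.

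Alternatives were median-of-ratios scaling, total counts, TMM without the seminal vesicle genes, no filter, DESeq2 1.42.0, a block for the replicate number, the omission of each mouse, and 2 in place of 0.5 added to the counts of a ratio. Named genes are the members, list genes past the threshold in the fit of all mice or without NCD replicate 1, list genes near 0 counts, and the 10 genes most like the members. Other list genes were named after their values were seen. The members and lists were chosen with earlier results of these data known. Some list genes that entered the counts are not reported here by name. Figures were drawn with matplotlib 3.10.9.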

Additional observations from a re-analysis of the deposited data

How the results depend on the processing

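Of all genes 1139 were called, against 3904 by DESeq2 (which left 37 genes without an adjusted value) and 12 under the replicate block. Leaving out a mouse gave 2 to 3234 calls: 3234 when NCD replicate 1 was dropped, 2 for NCD replicate 2, for NCD replicate 3 or for HFD replicate 1, 7 for HFD replicate 2 and 4 for HFD replicate 3. The number of members past it was 0 under all 6 alternatives with every mouse and 0 to 1 when a mouse was left out. Total counts without further scaling put the median gene at 0.45 instead of -0.08, and under it *Cd79a* (0.26) and *Pax5* (0.26) reversed in sign while remaining below that median. *Pax5* also reversed with the replicate block (0.075), and it did not pass the filter once the seminal vesicle genes were taken out, which leaves 11 alternatives for it. The block moved the adjusted p of *Jchain* to 0.164 and changed no member's call, while the signalling list went from 9 calls to 0 and the macrophage list from 4 to 0. No replicate number is tied to a litter or day in the labels, so the block is not read as a pairing. Adjusted p-values over the alternatives ran from 0.0459 to 0.553 for *Jchain* and stayed at 0.176 or above for the other 6 members. Over the fits without a mouse the log2 fold change ranged from -1.08 to 0.50 for *Cd79a*, 0.11 to 0.95 for *Cd79b*, -1.70 to 0.25 for *Ms4a1*, -2.72 to -0.10 for *Cr2*, 0.15 to 0.72 for *Blk*, -1.02 to 1.29 for *Pax5* and -1.83 to -0.71 for *Jchain*. The log2 ratios ranged from -2.35 to -1.12 for *Cd79a* to *Ptprc*, -0.53 to -0.31 for *Ms4a1* to *Cd79a*, -1.23 to -0.58 for *Jchain* to *Cd79a* and -0.40 to 0.95 for *Cd79a* to *Cd3e*, and adding 2 to each count reversed none of them. The cause of these changes was not tested.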

Other observations

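Without NCD replicate 1, *Fcrl1* had a log2 fold change of 2.17 (adjusted p = 0.0507 from edgeR). *Tnfrsf13b* (TACI) was at 0.639, 0.535 and 0.521 TMM-scaled CPM on NCD and 1.18, 1.49 and 2.36 on HFD (log2 fold change 1.57, adjusted p = 0.0638 from edgeR). DESeq2 called *Tnfrsf13b*. *Cd22* was at 2.01, 3.33 and 4.88 on NCD and 12.0, 4.85 and 6.51 on HFD (log2 fold change 1.19, adjusted p = 0.160 from edgeR). These genes were named after their values were seen, and the cells they came from were not tested.

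Of 5 germinal centre genes tested, edgeR called 1 and DESeq2 called 2. Among all 15241 genes tested, edgeR called 1139 and DESeq2 3904. *S1pr2*, also expressed by macrophages and vessels, rose by 1.95 on the log2 scale (adjusted p = 0.0219 from edgeR). This edgeR call was lost when any single mouse other than NCD replicate 1 was left out.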
